A study of Danio rerio with 4 samples.

Results

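Transcripts of 10 transcription factor genes known from blood stem and progenitor cells were followed in single cells of zebrafish larvae: runx1, runx3, cbfb, myb, tal1, lmo2, fli1a, meis1b, spi1b and spi2. The genes were found by their exact symbol, all 10 were present, and they are 10 of the 27758 features of each library. Their Ensembl identifiers in the files are ENSDARG00000087646 (runx1), ENSDARG00000052826 (runx3), ENSDARG00000040917 (cbfb), ENSDARG00000053666 (myb), ENSDARG00000019930 (tal1), ENSDARG00000095019 (lmo2), ENSDARG00000054632 (fli1a), ENSDARG00000012078 (meis1b), ENSDARG00000000767 (spi1b) and ENSDARG00000087438 (spi2). There were 4 libraries, 1 per group, and within a stage the embryos were handled alike except for the drug. In the ALK5i group at 3 days post fertilization (dpf), embryos had received 20 µM SB431542, an inhibitor of the TGF-β type I receptor ALK5, from 30 to 50 hours post fertilization (hpf), and gata2b GFP+ cells were sorted later from whole larvae. In the DMSO group at 3 dpf, the solvent was given over the same hours before the same sort. The ALK5i and DMSO groups at 6 dpf had the same exposures, but there the sorted cells were mpeg1.1 mCherry+, from a reporter driven by a macrophage promoter. Embryos were treated in wells of 40 to 50, larvae were minced whole, and the labels name no replicate. Treatment, pool of embryos and library therefore cannot be told apart, and at 6 dpf neither can stage and sort. All values are descriptions of these libraries with counting intervals, which cover counting error only, and no test across replicates was possible.

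RUNX proteins bind DNA better when paired with the core-binding factor beta subunit, and in vertebrate embryos they are needed for blood stem cells to arise from the endothelium of the aorta. MYB supports the later life of these cells. TAL1 and LMO2 sit in 1 DNA-bound complex with E proteins, GATA factors and LDB1 and act in early blood, red cell and platelet lineages, while the ETS proteins FLI1 and PU.1 are known from vessels and megakaryocytes and from myeloid cells. TGF-β acts through ALK5 and SMAD proteins and is known in zebrafish to take part in the emergence of blood stem cells.

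At 3 dpf the ALK5i library held 28261 barcodes and 60001771 unique molecular identifiers (UMIs, counted transcripts), and the DMSO library held 34398 barcodes and 97212191 UMIs. At 6 dpf these were 1272 barcodes and 12121332 UMIs with ALK5i, and 2125 barcodes and 20481201 UMIs with DMSO. Filters left 25582 (ALK5i) and 31738 (DMSO) cells of the younger larvae and 1179 (ALK5i) and 1979 (DMSO) of the older ones. Each kept cell was placed in the class of which it showed most markers, given at least 3, and no list of markers held any of the 10 genes. Of kept cells at 3 dpf, 46.3% (ALK5i) and 43.7% (DMSO) fell in 1 of 6 blood classes, and most of these were macrophage-like, so that the sorted cells held many cells other than progenitors, among them pigment cells (5845 and 9837) and neurons (1743 and 1379). The progenitor-like class held 735 (ALK5i) and 1259 (DMSO) cells, with median depths of 3196 and 4156 UMIs. The labels name GFP, but the reporter feature that carried reads was EYFP. EYFP stood at 3844 (ALK5i) and 4517 (DMSO) CPM (UMIs scaled to a class total of 1000000) in progenitor-like cells, against 21.0 and 58.2 CPM in neuron-like cells, and gata2b, itself a marker of the class, at 282 and 243 CPM. The 3 dpf libraries shared 248 barcodes and the 6 dpf libraries shared 3. Without the cells of shared barcodes the counts of the 10 genes past 1.5-fold between ALK5i and DMSO were 0 in progenitor-like, 1 in lymphoid-like and 0 in macrophage-like cells at 3 dpf, as with them.

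In progenitor-like cells at 3 dpf all 10 genes were detected in both libraries, and the levels of the 2 libraries lay close together for most of them. A level is given as CPM of all UMIs of the class, and shares of cells were taken after thinning each cell to 1000 UMIs, which left 731 (ALK5i) and 1257 (DMSO) cells. Levels are compared only within a gene.

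The core-binding factor genes differed in where they were highest. runx1, needed for definitive blood, stood at 80.9 CPM (95% counting interval 70.0 to 93.0) in ALK5i and at 81.4 CPM (74.0 to 89.3) in DMSO progenitor-like cells. Thrombocyte-like cells held 39.5 CPM of runx1 in ALK5i (5 UMIs) and 86.0 CPM in DMSO (23 UMIs), the highest value of that library, and neutrophil-like cells held 37.1 and 30.8 CPM. The interval of the thrombocyte-like class overlapped that of the progenitor-like class in both libraries, so the order of these neighbours is not settled. runx3, a RUNX gene known in mouse from T cells, had its highest level in lymphoid-like cells, at 768 CPM (ALK5i) and 1119 CPM (DMSO). In progenitor-like cells runx3 stood at 260.7 and 385 CPM, and in pigment cells at 269 and 288 CPM, so that its levels were high in several classes. cbfb, the partner subunit, was broad: 275 (ALK5i) and 304 (DMSO) CPM in progenitor-like cells, 328 and 350 CPM in neutrophil-like cells, and 451 and 390 CPM in pigment cells, the highest class in both libraries.

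myb, needed in zebrafish to maintain blood stem cells, had its highest CPM in progenitor-like cells, with 619 CPM (588 to 651) in ALK5i and 642 CPM (621 to 664) in DMSO. Lymphoid-like cells held 519 and 415 CPM and erythroid-like cells 494 and 412 CPM, and the intervals of these 2 classes overlapped in each library. Globin genes took 341359 (ALK5i) and 371075 (DMSO) CPM of erythroid-like cells, against 589 and 628 CPM in progenitor-like cells. That lowers the CPM of every other gene in erythroid-like cells, so the order of myb between progenitor-like and erythroid-like cells is not settled. Macrophage-like cells held 7.77 (ALK5i) and 11.9 (DMSO) CPM of myb. Thinned to equal depth, 42.1% (ALK5i) and 43.0% (DMSO) of progenitor-like cells had a myb UMI, against 0.43% and 0.82% of macrophage-like cells and 0.40% and 0.81% of neuron-like cells. Median depths were 1886 (ALK5i) and 2683 (DMSO) UMIs in macrophage-like and 1788 and 2561 UMIs in neuron-like cells. The myb share of macrophage-like cells was thus near that of neuron-like cells. A share alone does not show whether such myb UMIs are background. In macrophage-like cells myb was uneven, far higher in the few cells with most EYFP than in those without, as given below.

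The SCL genes were highest outside the progenitor-like class. tal1, the basic helix-loop-helix factor also called scl, stood at 58.7 (ALK5i) and 40.2 (DMSO) CPM in progenitor-like cells, against 293 and 247 CPM in thrombocyte-like and 126 and 109 CPM in erythroid-like cells. Neuron-like cells also held tal1, at 43.9 and 51.5 CPM. lmo2, the LIM-only bridging protein of the same complex, stood at 135 (ALK5i) and 116 (DMSO) CPM in progenitor-like cells, against 389 and 377 CPM in erythroid-like cells and 395 and 254 CPM in thrombocyte-like cells. In lymphoid-like and macrophage-like cells both genes were low, with 2 (ALK5i) and 0 (DMSO) tal1 UMIs in the lymphoid-like class.

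Among the ETS genes, fli1a and spi1b were highest in different classes. fli1a, known from vessels and platelet-forming cells, stood at 350 (ALK5i) and 391 (DMSO) CPM in progenitor-like cells, at 735 and 789 CPM in thrombocyte-like cells and at 555 and 584 CPM in the small endothelial-like class of 45 and 107 cells. spi1b, which encodes the myeloid factor PU.1, stood at 182 (ALK5i) and 184 (DMSO) CPM in progenitor-like cells, far below neutrophil-like cells with 1960 and 1870 CPM and macrophage-like cells with 1926 and 1751 CPM. spi2 was the most restricted in DMSO, with 138 CPM in progenitor-like cells and at most 18.7 CPM in any other gated class of at least 50 cells. With ALK5i, spi2 stood at 136 CPM in progenitor-like cells and 79.1 CPM in thrombocyte-like cells, the last from 10 UMIs. The ALK5i endothelial-like class held 46 spi2 UMIs, all in 1 of its 45 cells. meis1b, a homeobox gene whose mouse counterpart acts in stem cells and megakaryocytes, stood at 133 (ALK5i) and 127 (DMSO) CPM in progenitor-like cells, against 577 and 587 CPM in thrombocyte-like and 592 and 543 CPM in neuron-like cells.

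**Figure D1:**
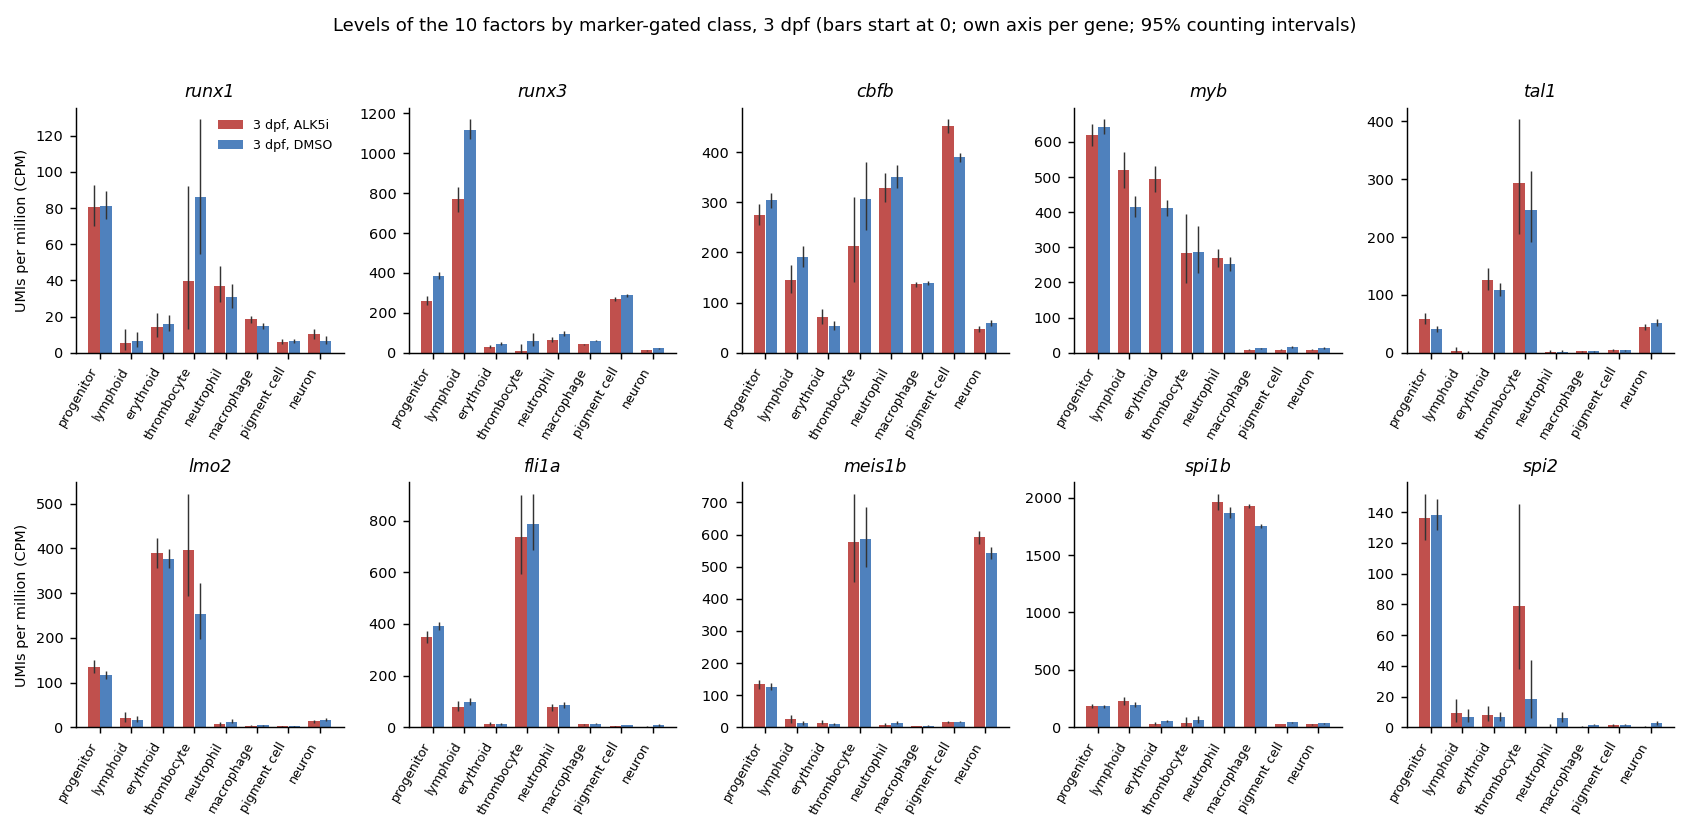
Level of each gene (vertical axis, CPM of the class, own scale per gene) in 6 blood-like classes and in pigment cells and neurons at 3 dpf (horizontal axis), ALK5i left in red and DMSO right in blue, with 95% counting intervals as lines. myb and spi2 are high in progenitor-like cells, runx3 in lymphoid-like cells (768 and 1119 CPM), tal1, lmo2, fli1a and meis1b in thrombocyte-like cells, and spi1b in neutrophil-like and macrophage-like cells.

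The progenitor-like class held several of these genes at once. After thinning, the median progenitor-like cell showed 2 of the 10 genes in both libraries, and 22.8% (167 of 731, exact interval 19.8 to 26.1) of ALK5i and 24.7% (310 of 1257, 22.3 to 27.1) of DMSO cells showed at least 3. The shares with at least 3 were 1.06% (ALK5i) and 1.15% (DMSO) in macrophage-like cells and 0.0794% and 0.485% in neuron-like cells, but 26.0% and 31.7% in thrombocyte-like cells. Between these lay neutrophil-like cells with 11.3% and 12.9%, lymphoid-like cells with 8.74% and 9.58%, and erythroid-like cells with 4.13% and 2.44%. Neutrophil-like cells with 3 or more EYFP UMIs (73 in ALK5i, 143 in DMSO) showed 28.8% and 27.3%, so such shares were not particular to the progenitor-like class. The thrombocyte-like shares rest on 50 (ALK5i) and 104 (DMSO) cells, since 32 and 30 shallower cells of the class were left out by thinning. In the whole class of 82 (ALK5i) and 134 (DMSO) cells, the summed level of progenitor markers, 2412 and 1824 CPM, was above that of the progenitor-like class itself, 1885 and 1666 CPM. The median thrombocyte-like cell showed fewer of these markers, 2 in both libraries, against 3 (ALK5i) and 4 (DMSO) in the progenitor-like class.

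Set against macrophage-like cells of the same library, a gene was called when its level, as the ratio of CPM + 5, was at least 2-fold apart and both classes together held at least 20 UMIs. In ALK5i, 8 of 10 genes were called higher in progenitor-like cells, where 24.1% of all genes measured were, and in DMSO 9 of 10 were, where 19.9% of all genes were. spi1b was lower, by log2 ratios of -3.37 (ALK5i) and -3.22 (DMSO), where 15.3% and 13.1% of all genes were called lower. The log2 ratios of the others ran from 0.99 for cbfb to 5.61 for myb in ALK5i, and from 1.098 for cbfb to 5.26 for myb in DMSO. The median of all 10 was 3.50 (ALK5i) and 3.13 (DMSO), against 0.19 and 0.17 over all genes.

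Against neutrophil-like cells, 8 genes were called higher and spi1b lower in each library, where 17.7% (ALK5i) and 12.4% (DMSO) of all genes were higher and 10.6% and 8.11% lower. cbfb was the gene not called, at -0.25 and -0.20. Against erythroid-like cells, 7 genes were higher and 2 lower, tal1 and lmo2, in each library, with 27.4% (ALK5i) and 23.5% (DMSO) of all genes higher and 4.33% and 2.92% lower. Red-cell-like cells thus held more tal1, by log2 ratios of -1.04 and -1.33 for progenitor over erythroid, and more lmo2, by -1.49 and -1.66. The large globin share of erythroid-like cells lowers the CPM of their other genes, and no ratio was corrected for this. The median over all genes was 0.62 (ALK5i) and 0.58 (DMSO) in this comparison.

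Against lymphoid-like cells, 6 genes were called higher in both libraries: runx1, tal1, lmo2, fli1a, meis1b and spi2. Only 4.81% (ALK5i) and 2.76% (DMSO) of all genes were higher in that comparison. runx3 was lower, at -1.54 (ALK5i) and -1.53 (DMSO), where 2.58% and 1.82% of all genes were, while cbfb, myb and spi1b were not called. Against thrombocyte-like cells, tal1, lmo2, fli1a and meis1b were called lower in both libraries, with log2 ratios of -2.22, -1.52, -1.06 and -2.07 in ALK5i and of -2.48, -1.097, -1.002 and -2.17 in DMSO, where 10.2% and 9.58% of all genes were lower. runx3, myb and spi1b were higher in both, and spi2 also in DMSO, where 24.8% (ALK5i) and 16% (DMSO) of all genes were higher. The thrombocyte-like side rests on few UMIs for runx3, with 1 in ALK5i and 16 in DMSO.

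Within the progenitor-like class the genes were spread unevenly over cells that also carried markers of a further blood class. Cells with at least 2 lymphoid markers (138 in ALK5i, 230 in DMSO) held 603 and 726 CPM of runx3, against 184 and 370 CPM in cells with no other blood class at 2 markers (385 and 487 cells), which gives log2 ratios of 1.69 (1.43 to 1.94) and 0.96 (0.81 to 1.11). In ALK5i runx3 was the 1 gene of 10 called higher there, where 2.14% of all genes were, and in DMSO none of 10 was, where 1.13% of all genes were. runx1, tal1 and spi2 in ALK5i, and runx1, tal1 and lmo2 in DMSO, were called lower, against 3.9% and 1.74% of all genes. runx1 stood at 37.8 (ALK5i) and 36.8 (DMSO) CPM with lymphoid markers and at 96.8 and 91.7 CPM without others. tal1 stood at 9.46 and 10.8 CPM with them and at 57.3 and 38.3 CPM without.

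In cells with thrombocyte markers (45 in ALK5i, 73 in DMSO), tal1 was the 1 gene of 10 called higher than in cells without others, at 1.11 (0.37 to 1.80) in ALK5i and 1.39 (0.81 to 1.94) in DMSO, where 4.01% and 1.74% of all genes were higher. None of the 10 was called lower in ALK5i, where 8.16% of all genes were, while in DMSO runx3 was, at -1.45 (-1.90 to -1.02), and spi1b, at -1.84 (-2.61 to -1.14), where 3.81% of all genes were. lmo2 in the same cells stood at 160 (ALK5i) and 178 (DMSO) CPM, against 132 and 120 CPM without others, and fli1a at 296 and 492 CPM, against 387 and 400 CPM, so that fli1a lay on opposite sides in the libraries.

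The few cells with erythroid markers (28 in ALK5i, 37 in DMSO) held 1005 and 1217 CPM of myb and 452 and 269 CPM of lmo2, the highest of the subsets for both genes, and were too few to compare. Cells with neutrophil markers (47 in ALK5i, 131 in DMSO) held 307 and 295 CPM of spi1b, against 184 and 164 CPM in cells without others. That difference stayed under 2-fold, and 0 of 10 genes was called higher there in either library, where 2.86% (ALK5i) and 1.14% (DMSO) of all genes were. With macrophage markers (30 and 117 cells), spi1b stood at 146 CPM in ALK5i and 221 CPM in DMSO.

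**Figure D2:**
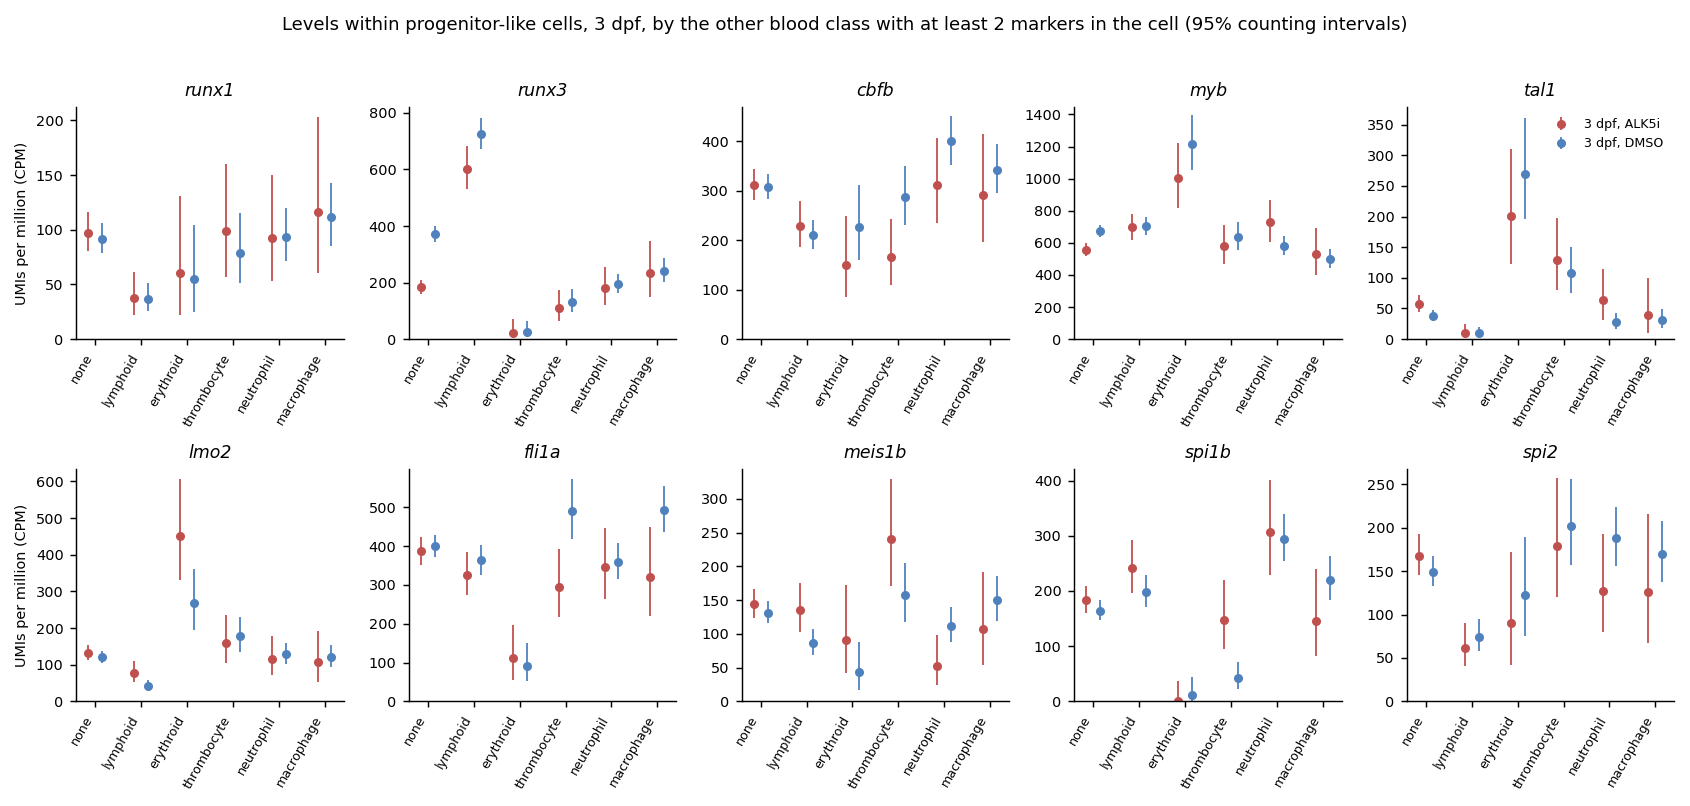
Level of each gene (vertical axis, CPM) in progenitor-like cells at 3 dpf grouped by the other blood class of which the cell showed at least 2 markers (horizontal axis), ALK5i left in red and DMSO right in blue, with 95% counting intervals. runx3 is highest with lymphoid markers (603 and 726 CPM), and tal1, lmo2 and myb with erythroid markers.

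Joint detection was counted in single thinned progenitor-like cells. runx3 and tal1 were seen together in 2 of 731 ALK5i cells and 3 of 1257 DMSO cells, that is 0.274% (exact interval 0.0332 to 0.985) and 0.239% (0.0492 to 0.696), where the product of their single shares gave 1.39% and 1.18%. tal1 and lmo2 were seen together in 1.23% (0.564 to 2.32) of ALK5i and 0.636% (0.275 to 1.25) of DMSO cells, against products of 0.606% and 0.397%. The interval of runx3 with tal1 lay below its product in both libraries, while that of tal1 with lmo2 held its product in both, and at most 9 cells showed either pair. Other pairs also departed from their product, in both directions. In ALK5i, fli1a with spi1b was seen in 1.23% (0.564 to 2.32) of cells, against a product of 3.32%. There fli1a with meis1b was seen in 4.51% (3.13 to 6.28), against a product of 2.74%.

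EYFP, the reporter feature that carried reads, gave a second axis. Of all kept cells at 3 dpf, 10.9% (ALK5i) and 16.0% (DMSO) had an EYFP UMI. In all gated blood-like cells of 3 dpf, cells with 3 or more EYFP UMIs numbered 817 (ALK5i) and 1499 (DMSO), against 10629 and 11296 cells with none. Of the 10 genes, 8 were called higher at 3 or more EYFP UMIs than at 0 in each library, where 18.4% (ALK5i) and 15.2% (DMSO) of all genes were. spi1b was the 1 gene called lower, where 13.8% and 11.3% of all genes were. tal1 missed the fold, at 0.99 (0.68 to 1.29) in ALK5i and 0.74 (0.53 to 0.95) in DMSO. A further 1101 (ALK5i) and 1229 (DMSO) cells with 3 or more EYFP UMIs were ungated and lie outside this comparison. Within ungated cells the median log2 ratio of the 10 genes, 3 or more over 0, was 0.84 (ALK5i) and 1.13 (DMSO). Over all genes it was -0.07 and -0.03 there.

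Across 0, 1 to 2 and 3 or more EYFP UMIs, myb stood at 53.7, 368 and 597 CPM in ALK5i and at 60.8, 201 and 581 CPM in DMSO. fli1a followed with 25.3, 117 and 258 CPM in ALK5i and 27.4, 82.2 and 297 CPM in DMSO. spi2, which was near 0 without EYFP, stood at 3.45, 52.3 and 87.0 CPM in ALK5i and at 6.24, 23.5 and 84.4 CPM in DMSO. These 3 genes increased at each step in both libraries. spi1b went the other way, with 1776, 1116 and 397 CPM in ALK5i and 1579, 1234 and 379 CPM in DMSO. The median depth of the cells also increased with EYFP level, 1920, 2565 and 3157 UMIs in ALK5i and 2658, 3306 and 4271 UMIs in DMSO, and the mixture of classes changed with it. The part of depth and of class in the CPM differences of all gated cells was not tested as such, but the same comparison within a class follows.

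Within progenitor-like cells the EYFP steps nearly vanished. No gene of 10 was called higher at 3 or more EYFP UMIs than at 0 in ALK5i (523 against 129 cells) or in DMSO (957 against 186 cells), where 2.86% and 0.812% of all genes were. tal1 was the 1 gene called lower, with log2 ratios of -1.32 (-1.82 to -0.79) in ALK5i and -1.36 (-1.78 to -0.93) in DMSO, where 3.59% and 2.78% of all genes were lower. Across the 3 levels tal1 stood at 110, 90.0 and 41.3 CPM in ALK5i and at 78.9, 89.1 and 27.6 CPM in DMSO. The drop lay between 1 to 2 and 3 or more UMIs in both libraries. Progenitor-like cells with erythroid markers held 201 (ALK5i) and 269 (DMSO) CPM of tal1 and 1146 and 1266 CPM of EYFP. Cells with no other blood class at 2 markers held 57.3 and 38.3 CPM of tal1 and 4181 and 4670 CPM of EYFP. The part of this make-up in the tal1 drop was not tested. myb, in contrast, stood at 691, 607 and 602 CPM in ALK5i and at 705, 609 and 635 CPM in DMSO, and spi1b at 129, 157 and 199 CPM and at 142, 133 and 197 CPM.

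Other blood classes differed among themselves by EYFP level. Macrophage-like cells with 3 or more EYFP UMIs were few, 48 in ALK5i and 103 in DMSO, and their median depths of 3836 and 4684 UMIs lay above the 1879 and 2642 UMIs of those with none. In them 8 of 9 genes tested (ALK5i) and 9 of 10 (DMSO) were called higher than at 0, where 18.1% and 15.5% of all genes were. myb stood at 474 CPM at 3 or more and 2.71 CPM at 0 in ALK5i, and at 297 and 5.77 CPM in DMSO. spi1b was lower, 818 CPM at 3 or more and 1939 CPM at 0 in ALK5i, and 787 and 1777 CPM in DMSO. As a group these cells thus held both sets of transcripts, and called doublets had been removed before. Summed levels do not show whether single cells held both. Doublets called at 3 dpf were 6.88% (ALK5i) and 7.09% (DMSO) of cells, fewer than the 11.0% and 13.7% expected from the number of barcodes, so some can remain, and their part in these values was not tested.

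In neutrophil-like cells, 3 of 6 genes tested (ALK5i) and 5 of 8 (DMSO) were called higher at 3 or more EYFP UMIs, where 8.44% and 8.35% of all genes were. cbfb stood at 578 CPM at 3 or more and 256 CPM at 0 in ALK5i, and at 591 and 241 CPM in DMSO, while myb stood at 625 and 157 CPM in ALK5i and at 511 and 139 CPM in DMSO. spi1b was not called there, with 1806 and 1971 CPM in ALK5i and 1580 and 1977 CPM in DMSO. In erythroid-like cells of DMSO, the library with enough of them, 6 of 9 genes were called higher, where 25% of all genes were, among them runx1, runx3 and myb. In lymphoid-like cells 0 of 5 genes tested (ALK5i) and 2 of 7 (DMSO) were called higher, where 2.66% and 1.6% of all genes were. The 2 genes in DMSO were lmo2 and meis1b, each with 21 UMIs at 3 or more. Both met the minimum of UMIs through the cells at 3 or more alone, so these calls rest on few UMIs. Neither gene had enough UMIs to be tested in ALK5i, so that library cannot be set beside these calls. In lymphoid-like cells spi1b was called lower at 3 or more EYFP UMIs, 147 CPM against 359 CPM at 0 in ALK5i and 122 CPM against 346 CPM in DMSO, as were 3.63% and 3.17% of all genes. Lymphoid-like cells kept runx3 at both ends, with 806 and 731 CPM in ALK5i and 1058 and 1145 CPM in DMSO.

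The inhibitor comparison asked whether cells of treated embryos, sampled after the drug was removed, held other levels of these genes. In progenitor-like cells 0 of 10 genes passed 1.5-fold between ALK5i and DMSO, where 4.27% of all genes did. runx1 was level, at -0.01 (95% counting interval -0.24 to 0.22) on the log2 scale, as were spi1b at -0.01 (-0.17 to 0.14), spi2 at -0.02 (-0.20 to 0.16), myb at -0.05 (-0.14 to 0.03) and meis1b at 0.07 (-0.12 to 0.26). For these 5 genes the counting interval held 0 and lay inside 1.5-fold on both sides. fli1a and cbfb were slightly lower with ALK5i, at -0.16 (-0.27 to -0.05) and -0.14 (-0.27 to -0.01), and lmo2 slightly higher, at 0.21 (0.02 to 0.40). With gates on thinned cells meis1b moved to 0.43, spi1b to 0.41 and spi2 to -0.32, outside these intervals but inside 1.5-fold. cbfb then stood at 0.12, on the other side of 0, and lmo2 at 0.51. These levels thus moved with the gate. Gates on thinned cells hold another set of cells, whose own counting intervals are not given. Whether the shifts exceeded counting error was therefore not tested. The median of the 10 genes was -0.02, against -0.04 over all genes.

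The genes furthest from 0 were runx3 and tal1. runx3 had 635 UMIs in ALK5i and 2117 in DMSO progenitor-like cells, and its log2 ratio of -0.56 (-0.68 to -0.43) lay just inside the 1.5-fold line of -0.58. With a gate that asked for a lead of 2 markers the runx3 ratio was -0.76 and was called, and with gates on thinned cells it was -0.38. tal1 stood at 58.7 CPM in ALK5i and 40.2 CPM in DMSO, with a log2 ratio of 0.49 (0.21 to 0.78). The interval of tal1 reached past 1.5-fold on its upper side and stayed above 0.

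The lower runx3 level with ALK5i was seen in every class that could be tested at 3 dpf. Of 10 classes with enough UMIs, all 10 had a runx3 ratio below 0, and in 9 the interval lay below 0, the exception being neural progenitors or glia. Lymphoid-like cells held 768 CPM in ALK5i and 1119 CPM in DMSO, a log2 ratio of -0.54 (-0.67 to -0.41). Macrophage-like cells held 41.3 and 58.9 CPM, at -0.47 (-0.58 to -0.36), neutrophil-like cells 62.8 and 94.4 CPM, at -0.55 (-0.87 to -0.23), and erythroid-like cells 30.2 and 44.5 CPM, at -0.49 (-0.95 to -0.05). With progenitor-like cells, the runx3 ratios of these 5 blood classes ran between -0.56 and -0.47. With gates on thinned cells the ratio was closer to 0, at -0.38 in progenitor-like, -0.29 in lymphoid-like and -0.40 in macrophage-like cells. In pigment cells the difference was small: 269 CPM in ALK5i and 288 CPM in DMSO, at -0.10 (-0.16 to -0.03). The runx3 level of pigment cells was like that of progenitor-like cells in ALK5i, but below it in DMSO.

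Over all gated blood-like cells runx3 stood at 83.8 CPM in ALK5i and 144 CPM in DMSO, at -0.75 (-0.82 to -0.68), and was the 1 gene of 10 called, where 0.853% of all genes were. The mixture of classes differed too: 735 of 11836 (ALK5i) and 1259 of 13870 (DMSO) of these cells were progenitor-like, and 316 and 505 lymphoid-like. These 2 classes had the highest runx3 levels in blood, and the part of the mixture in the pooled ratio was not tested. Ungated cells, which held fewer than 3 markers or tied, had 257 and 399 CPM, at -0.62 (-0.70 to -0.55), and runx3 was again the 1 gene called, where 1.77% of all genes were. Among progenitor-like cells the difference was uneven. Cells in which no other blood class reached 2 markers held 184 CPM in ALK5i and 370 CPM in DMSO, at -0.99 (-1.21 to -0.78), the 1 gene of 10 called there, where 9.31% of all genes were. These were 385 of 735 progenitor-like cells in ALK5i and 487 of 1259 in DMSO, with median depths of 3185 and 3866 UMIs. Fewer markers can be seen in shallower cells, so the subsets can differ in make-up. The part of depth and make-up in the subset ratios was not tested. Cells with lymphoid markers held 603 and 726 CPM, at -0.26 (-0.48 to -0.06), and runx3 was not among the 2 of 9 genes called there (lmo2 and meis1b, both higher), where 17.6% of all genes were. Cells in which other blood classes tied (62 in ALK5i, 184 in DMSO) had 4 of 10 genes called, where 27.1% of all genes were: tal1 higher, at 0.97 (-0.03 to 1.91), and runx1, meis1b and spi1b lower, at -0.79 (-1.72 to 0.06), -0.74 (-1.41 to -0.11) and -1.06 (-1.74 to -0.43).

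By EYFP level, runx3 in progenitor-like cells stood at 184, 360 and 265 CPM at 0, 1 to 2 and 3 or more UMIs in ALK5i, and at 337, 350 and 398 CPM in DMSO. The log2 ratio of ALK5i over DMSO was -0.86 (-1.23 to -0.50) at 0. There runx3 was called lower and lmo2 higher, 2 of 10 genes, where 20.2% of all genes were called in either direction. The runx3 ratio was 0.04 (-0.34 to 0.41) at 1 to 2 EYFP UMIs, where cbfb was the 1 gene of 10 called, at -0.64 (-1.09 to -0.20), and 21.7% of all genes were. It was -0.58 (-0.73 to -0.43) at 3 or more, where 0 of 10 genes and 5.6% of all genes were called. The interval held 0 in the 83 (ALK5i) and 116 (DMSO) cells of the middle level and lay below 0 at both ends. Neuron-like cells held less EYFP in ALK5i (21.0 CPM) than in DMSO (58.2 CPM) and less runx3 (11.3 and 21.2 CPM). Whether these runx3 UMIs were free RNA, and the part of free RNA in the runx3 differences, was not tested.

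**Figure D3:**
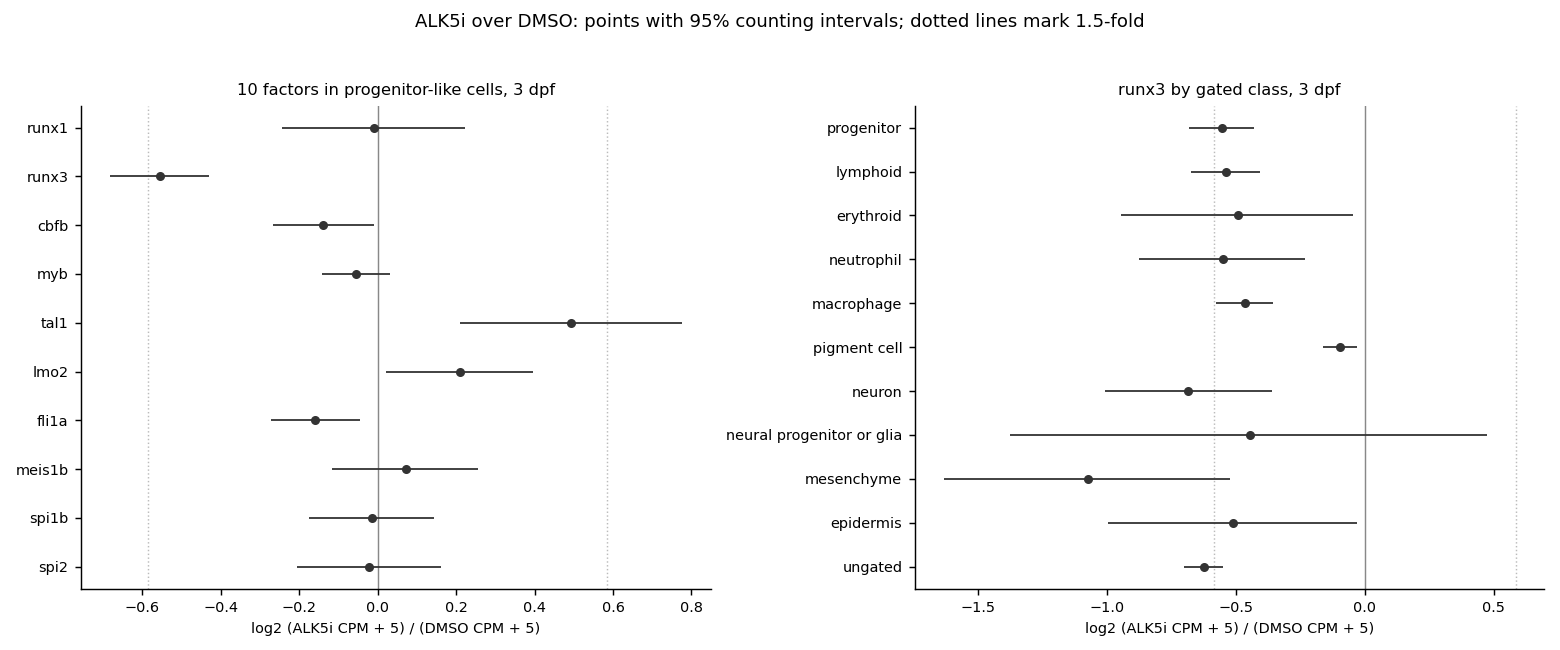
Log2 ratio of ALK5i over DMSO (horizontal axis, ratio of CPM + 5) at 3 dpf for the 10 genes in progenitor-like cells (left) and for runx3 in each gated class and in ungated cells (right), points with 95% counting intervals and dotted lines at 1.5-fold. In the left panel runx3 (-0.56) and tal1 (0.49) lie furthest from 0, and in the right panel all points lie below 0.

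In the 6 gated classes outside blood compared at 3 dpf, every called gene was lower in ALK5i. In pigment cells 2 of 10 were called, where 0.9% of all genes were: myb, with 8.53 CPM in ALK5i (78 UMIs) and 15.7 CPM in DMSO (310 UMIs), at -0.61 (-0.85 to -0.37), and fli1a, with 3.17 and 9.03 CPM, at -0.78 (-1.01 to -0.51). In neuron-like cells 2 of 9 were called, runx3 and fli1a, where 3.29% of all genes were. In mesenchyme-like cells 3 of 7 were called, runx3, myb and spi1b, where 11.7% of all genes were, and in epidermis-like cells 2 of 8, lmo2 and fli1a, where 9.98% were. In neural progenitors or glia 1 of 6 was called, cbfb, where 19.2% of all genes were, and in muscle-like cells 2 of 4, cbfb and spi1b, where 31.4% were. These genes were low in most of these classes, and EYFP was lower in ALK5i there too, with 45.7 CPM in ALK5i and 143 CPM in DMSO pigment cells. The part of free RNA in these differences was not tested.

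Within blood, few of the genes passed 1.5-fold in a whole class. In lymphoid-like cells 1 of 7 genes with enough UMIs was called, where 11% of all genes were: meis1b, from 19 UMIs in ALK5i and 24 in DMSO, at 0.66 (-0.08 to 1.38). myb stood at 519 CPM in ALK5i and 415 CPM in DMSO lymphoid-like cells, at 0.32 (0.14 to 0.49), and cbfb at 145 and 191 CPM, at -0.38 (-0.70 to -0.08). In erythroid-like cells 1 of 10 genes was called, spi1b, with 33.0 CPM in ALK5i and 57.3 CPM in DMSO, at -0.71 (-1.14 to -0.29), where 6.84% of all genes were. myb in erythroid-like cells was 494 and 412 CPM, at 0.26 (0.13 to 0.39). The share of genes called in these classes was thus close to that over all genes.

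In neutrophil-like cells 0 of 8 genes was called, where 6.41% of all genes were, and spi2 had 0 UMIs in ALK5i and 17 in DMSO. In thrombocyte-like cells 3 of 8 genes were called, where 27.1% of all genes were: lmo2 at 0.63 (0.08 to 1.17), with 395 CPM in ALK5i and 254 CPM in DMSO, and runx1 and spi1b at -1.03 (-2.49 to 0.29) and -0.62 (-2.12 to 0.75), each from 5 UMIs in ALK5i. In the 3 dpf macrophage-like cells, the class with most UMIs, 0 of 10 genes was called, where 1.05% of all genes were. spi1b stood at 1926 CPM in ALK5i and 1751 CPM in DMSO, at 0.14 (0.12 to 0.16), and runx1 at 18.4 and 14.7 CPM, at 0.25 (0.09 to 0.40). Both were differences well under 1.5-fold that exceeded counting error.

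Gated blood-like cells with 1 to 2 EYFP UMIs stood apart. There 5 of 10 genes were called higher in ALK5i, where 7.18% of all genes were: runx1 at 0.60, myb at 0.85 (0.68 to 1.03), tal1 at 0.75, meis1b at 0.90 and spi2 at 1.01. myb stood at 368 CPM in ALK5i and 201 CPM in DMSO. Of these cells, 174 of 390 in ALK5i and 675 of 1075 in DMSO were macrophage-like, and 83 and 116 were progenitor-like, so the mixture of classes differed with the levels. Within progenitor-like cells of that EYFP level, myb stood at 607 CPM in ALK5i and 609 CPM in DMSO. Within macrophage-like cells of that level, 2 of 6 genes tested were called higher in ALK5i, where 6.83% of all genes were: runx1, at 0.997 (0.21 to 1.74) from 16 UMIs in ALK5i and 40 in DMSO, and fli1a, at 0.91 (-0.06 to 1.80) from 9 and 22 UMIs. myb stood there at 27.3 and 18.7 CPM, and the part of the mixture of classes was not tested. Outside blood, too, cells with 1 to 2 EYFP UMIs were more frequent in DMSO. They were 81 of 5845 (ALK5i) and 476 of 9837 (DMSO) pigment cells, and 40 of 1743 and 129 of 1379 neuron-like cells. The part of this difference in any ratio at that EYFP level was not tested.

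At 6 dpf, the mpeg1.1 mCherry+ sort left 435 (ALK5i) and 641 (DMSO) macrophage-like cells, and only 2 and 10 progenitor-like cells, too few to compare. EYFP was nearly absent, with at most 2 UMIs in any cell. In the 6 dpf macrophage-like cells spi1b stood at 1566 CPM in ALK5i and 1812 CPM in DMSO, at -0.21 (-0.25 to -0.17), and cbfb at 60.6 and 43.4 CPM, at 0.44 (0.22 to 0.66). lmo2 was the 1 gene of 5 tested that was called, where 6.28% of all genes were, from 3 UMIs in ALK5i and 33 in DMSO, at -0.74 (-0.94 to -0.35). runx3 stood at 25.0 and 29.2 CPM, at -0.19 (-0.48 to 0.10), and its interval held both 0 and the 3 dpf macrophage-like ratio of -0.47. In 6 dpf neuron-like cells runx3 was higher in ALK5i, with 25 UMIs in ALK5i and 17 in DMSO, and was called there together with tal1, which was lower, where 22.4% of all genes were.

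The 6 dpf macrophage-like cells were set beside those of 3 dpf of the same treatment. In ALK5i 3 of 9 genes tested were at least 2-fold lower at 6 dpf (runx1 at -1.81, cbfb at -1.11, fli1a at -1.19), where 19.8% of all genes were, and in DMSO 3 of 10 were (runx1 at -1.57, cbfb at -1.58, myb at -1.57), where 17.8% of all genes were. None was called higher, where 2.9% (ALK5i) and 2.33% (DMSO) of all genes were. At 3 dpf myb in macrophage-like cells was far higher at 3 or more EYFP UMIs than at 0, and EYFP was nearly absent at 6 dpf. The part of these EYFP-carrying cells in the myb ratio was not tested. runx1 stood at 1.66 CPM at 6 dpf and 18.4 CPM at 3 dpf in ALK5i, and at 1.65 and 14.7 CPM in DMSO. spi1b was kept, with 1566 and 1926 CPM in ALK5i, at -0.30 (-0.34 to -0.26), and 1812 and 1751 CPM in DMSO, at 0.05 (0.02 to 0.08). The medians over all genes were -0.36 (ALK5i) and -0.33 (DMSO), and sort, depth and stage differ together here.

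**Figure D4:**
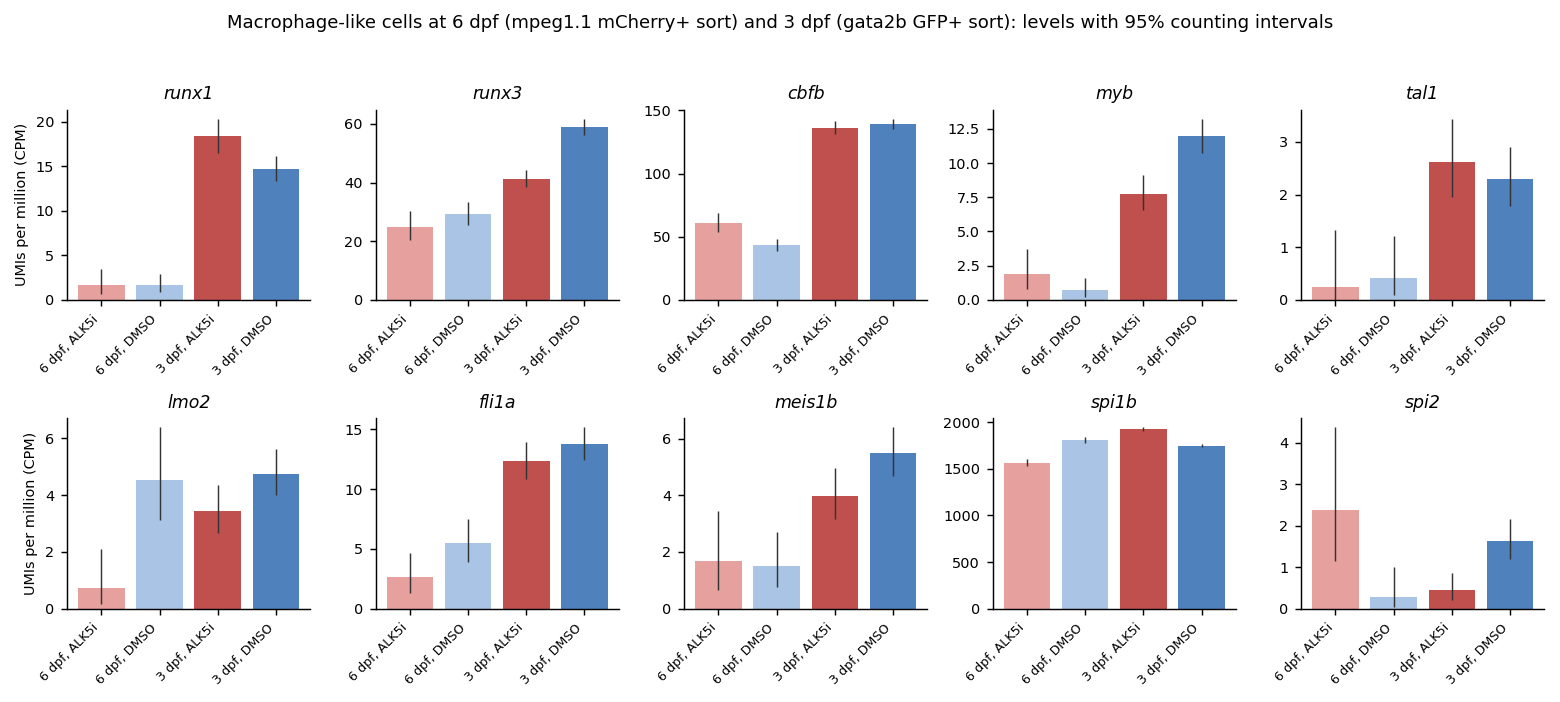
Level of each gene (vertical axis, CPM, own scale per gene, bars from 0) in macrophage-like cells, from left to right 6 dpf ALK5i, 6 dpf DMSO, 3 dpf ALK5i and 3 dpf DMSO, with 95% counting intervals. runx1 and cbfb are lower at 6 dpf in both treatments, while spi1b lies between 1566 and 1926 CPM in all 4 libraries.

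Genes known as partners, relatives or targets of the 10 were taken from a list of 45, of which 43 were measured. In progenitor-like cells of ALK5i over DMSO, none passed 1.5-fold among 8 tested genes of the SCL complex, 6 ETS relatives, 5 MEIS and PBX relatives, 3 MYB relatives and 4 core-binding factor relatives and cofactors, where 4.27% of all genes did. Of 8 targets, gfi1b, a repressor active in red cell and platelet lineages, was higher, with 25.9 CPM in ALK5i and 8.92 CPM in DMSO, at 1.15 (0.73 to 1.55). csf1ra, the receptor gene of macrophages and a known PU.1 target, was lower, with 6.98 and 19.7 CPM, at -1.04 (-1.50 to -0.55). csf1ra is also a marker of the macrophage gate. Progenitor-like cells with macrophage markers were 30 of 735 in ALK5i and 117 of 1259 in DMSO. The part of this make-up in the csf1ra ratio was not tested. In lymphoid-like cells, where 11% of all genes were called, tcf12 and ets1 were lower in ALK5i, at -0.62 (-1.24 to -0.02) and -0.74 (-1.29 to -0.22), and so was cebpa, a myeloid factor, at -1.08 (-1.66 to -0.52).

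Progenitor-like over macrophage-like cells, 6 of 9 SCL complex genes were called higher and 1 lower in ALK5i, and 5 of 9 and 1 in DMSO, where 24.1% (ALK5i) and 19.9% (DMSO) of all genes were higher and 15.3% and 13.1% lower. tcf3b, an E protein gene, stood at 124 CPM in progenitor-like and 15.7 CPM in macrophage-like cells in ALK5i, and at 159 and 18.9 CPM in DMSO. The LIM-only relatives were split: lmo4a was higher, at 2.13 (ALK5i) and 1.97 (DMSO), and lmo4b lower, at -1.89 in both. Of the ETS relatives, fli1b was higher, at 3.54 (ALK5i) and 3.33 (DMSO), and spi1a, the paralog of spi1b, was lower, at -3.85 and -3.63, so both paralogs went the way of fli1a and spi1b. Against the same shares of all genes, the 8 targets tested divided 4 higher and 4 lower in each library, with csf1rb, gfi1b, mycb and kita higher and irf8, csf3r, cebpa and csf1ra lower. csf1rb stood at 252 CPM in progenitor-like and 55.8 CPM in macrophage-like cells in ALK5i, and at 273 and 59.7 CPM in DMSO, the opposite of csf1ra, with 6.98 and 381 CPM in ALK5i and 19.7 and 396 CPM in DMSO. As a marker of the macrophage gate, csf1ra helped to define the macrophage-like class, so its lower level in progenitor-like cells is no separate result.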

How the data were processed

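The authors deposited counts, not normalized: UMIs per gene and cell barcode, made by Cell Ranger. The file headers give its version as 9.0.0 and the submitters' processing notes as 9.0.1, with the build GRCz11. Libraries came from the Chromium Next GEM 3′ v4 kit, per the labels. Cells with at least 500 UMIs, 300 genes and at most 10% mitochondrial UMIs were kept, and doublets called by Scrublet in scanpy 1.11.5 (0.4% expected per 1000 cells) were removed: 6.88% (ALK5i) and 7.09% (DMSO) at 3 dpf, and 5 cells in each 6 dpf library. Doublets of like cells escape such calls.

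Each cell went to the class with most detected markers, at least 3 and leading by 1, among 14 lists of 171 markers, 168 of them matched. UMIs were summed per class and library, and differences are log2 ratios of CPM + 5. Intervals are exact at 95%: Poisson for a level, and Clopper-Pearson for a share and for the division of UMIs between 2 groups. A gene counted as called past 1.5-fold between treatments, or 2-fold between classes, EYFP levels and stages, with at least 20 UMIs over both groups. The ratio step was checked on simulated data. Computation used Python 3.11.15, numpy 2.4.6, scipy 1.17.1, pandas 2.3.3 and matplotlib 3.10.9.

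All 10 genes are named; of partners and targets, at most the 4 furthest past the fold in each direction, and likeness partners for at most 5 genes. Genes, lists and tests were chosen with earlier results of these data known. Alternatives were another pseudocount, filters, gates and weighting. No sequences or coordinates are printed, because no sequence table of the files' build was used here.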

Additional observations from a re-analysis of the deposited data

Results flagged for a closer look

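For 2 genes ALK5i over DMSO ratios past 1.5-fold lay on opposite sides in different classes or stages. Without that fold, 9 of 10 genes had ratios on both sides of 0 over the classes of 3 dpf. No difference between these ratios was tested, since each group is 1 library. lmo2 was higher in thrombocyte-like cells at 3 dpf, at 0.63 on the log2 scale with 395 CPM (50 UMIs) in ALK5i and 254 CPM (68 UMIs) in DMSO. lmo2 was lower in epidermis-like cells at 3 dpf, at -0.83 from 3 UMIs in ALK5i and 17 in DMSO, and in macrophage-like cells at 6 dpf, at -0.74 from 3 and 33 UMIs. runx3 was lower at 3 dpf in neuron-like cells, at -0.69 with 11.3 CPM in ALK5i and 21.2 CPM in DMSO, and in mesenchyme-like cells, at -1.07 with 22.1 and 52.1 CPM. At 6 dpf runx3 was lower in epidermis-like cells, at -0.91 from 3 UMIs in ALK5i and 23 in DMSO, and higher in neuron-like cells, at 1.13 from 25 and 17 UMIs. Most of these values rest on under 40 UMIs in 1 of the libraries.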

How the results depend on the processing

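No paired analysis was possible because each group is 1 library and no value comes from a test. Under 11 alternatives (8 planned, 3 chosen after seeing the data), the counts of genes higher in progenitor-like than in macrophage-like cells, and higher at 3 or more EYFP UMIs than at 0, stayed between 7 and 9 in each library. The ALK5i over DMSO count in progenitor-like cells was 1 in place of 0 with a lead of 2 markers (runx3). In lymphoid-like cells it was 0 in place of 1 with at least 4 markers or a lead of 2, and 2 with no minimum of UMIs per gene (tal1, meis1b) or with gates on thinned cells (cbfb, fli1a). With the mean of each cell's CPM it was 1 again, but the gene was runx3, at -0.59, in place of meis1b. Gates on thinned cells also turned meis1b to -1.96, against 0.66. In macrophage-like cells at 3 dpf the count was 1 in place of 0 with a pseudocount of 1 (spi2) and 2 with doublets kept (runx3, myb). At 6 dpf it was 2 in place of 1 with a pseudocount of 1 (lmo2, fli1a) and 0 with gates on thinned cells. The cause of these shifts was not tested. Of 792 single values, 597 moved by less than their counting interval, 194 moved further and 1 reversed. Among the values that did not reverse, 29 had the other sign. Levels under about 3 UMIs per class are limited by depth.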

Other observations

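Across the 26 points given by the gated classes with at least 50 cells in a 3 dpf library, the gene most like each member by Pearson correlation of log2(CPM + 5) was sought among 13831 genes. The points share libraries, cells of unequal depth and free RNA, so these values are descriptions. For spi1b it was ncf1, a subunit gene of the phagocyte oxidase, at 0.97, after the unnamed CU499336.2 at 0.98. For lmo2 the closest were znfl2a at 0.94 and dipk2b at 0.91, for myb parm1 at 0.94 and tbcelb at 0.90, and for tal1 gata1a, the red cell GATA factor and an erythroid marker of the gates, at 0.89 and htr1d at 0.88. For fli1a they were pear1 at 0.92 and ldlrap1b at 0.88. Among the members, tal1 and lmo2 were the most alike, at 0.88, followed by fli1a and spi2 at 0.78, and meis1b and spi1b the least, at -0.60.

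In 6 dpf neuron-like cells tal1 had 5 UMIs in ALK5i and 69 in DMSO, 4.48 and 30.7 CPM, while at 3 dpf it stood at 43.9 and 51.5 CPM in the same class.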
